A study of Rattus norvegicus with 14 samples.

Results

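The integrin subunit genes Itga3, Itga6, Itgb4, Itgb6, Itga7, Itgb7, Itgb2, Itgax, Itgam and Itgal were followed in peritoneal mesotheliomas of the rat. They were taken by name, with earlier results of these data known. All 10 were found among the 22 integrin subunit genes, and the 14217 genes in all, that have an array probe set of their own. Tumors had arisen in male Wistar rats after 1 injection into the peritoneal cavity of multiwalled carbon nanotubes (MWCNTs) of 3 kinds or of amosite asbestos, given in artificial lung medium. Arrays came from 2 tumors for MWCNT B, 3 for MWCNT C, 3 for MWCNT D and 3 for amosite, and from peritoneal tissue of 3 control rats, which the labels call sham-treated and the study's methods call untreated. By histology 5 tumors were sarcomatoid, 3 biphasic and 3 epithelioid, each tumor came from a different rat, and the tumors were chosen by inducer and by the frozen material left. MWCNT B had no biphasic tumor and MWCNT C no epithelioid tumor, while MWCNT D and amosite had each type. Inducer and tumor type therefore cannot be fully told apart. The labels give no age, dose or time for single rats.

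Integrins are cell surface receptors made of an alpha and a beta subunit, which tie the cytoskeleton to the extracellular matrix or to other cells. In epithelia Itga6 pairs with Itgb4 in hemidesmosomes, Itga3 pairs with Itgb1 as a laminin receptor, and Itgb6 pairs with Itgav in a receptor that activates latent TGF-beta. Itga7 pairs with Itgb1 as the laminin receptor of striated muscle. On leukocytes Itgb2 is the shared partner of Itgal, Itgam and Itgax, which serve adhesion and phagocytosis, while Itgb7 pairs with Itga4 or Itgae on lymphocytes that home to mucosal tissue. Mesothelial cells line the peritoneum and rest on a laminin-rich basement membrane.

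The genes of Itgam and Itgax lie next to each other on chromosome 1, and both rose in the tumors, as did Itga3 on chromosome 10, whereas Itgb6 on chromosome 3 fell. Their promoters are shown because these genes mark both directions of the result. Of the 10 subunits 5 were matched by gene ID in the RefSeq promoter table of build GRCr8, and Itgb7 was the fifth. Each run holds the 250 bases before the transcription start, 5′ to 3′ on the gene's strand. Capitals mark the letters GAGGAA on either strand (TTCCTC on the strand shown), a core bound by the myeloid and lymphoid factor PU.1 among others.
Itgam (chr1:192089342-192089591, GRCr8, plus strand): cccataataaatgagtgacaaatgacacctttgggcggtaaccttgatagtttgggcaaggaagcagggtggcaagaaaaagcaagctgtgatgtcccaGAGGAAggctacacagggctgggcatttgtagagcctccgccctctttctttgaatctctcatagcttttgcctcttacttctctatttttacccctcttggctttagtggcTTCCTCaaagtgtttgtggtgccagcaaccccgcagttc
Itgax (chr1:192149799-192150048, GRCr8, plus strand): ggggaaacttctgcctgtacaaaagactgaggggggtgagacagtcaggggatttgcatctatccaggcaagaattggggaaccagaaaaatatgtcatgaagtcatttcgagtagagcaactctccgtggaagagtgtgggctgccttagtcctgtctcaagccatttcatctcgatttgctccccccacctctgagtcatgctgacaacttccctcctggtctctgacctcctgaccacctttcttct
Itga3 (chr10:80518902-80519151, GRCr8, minus strand): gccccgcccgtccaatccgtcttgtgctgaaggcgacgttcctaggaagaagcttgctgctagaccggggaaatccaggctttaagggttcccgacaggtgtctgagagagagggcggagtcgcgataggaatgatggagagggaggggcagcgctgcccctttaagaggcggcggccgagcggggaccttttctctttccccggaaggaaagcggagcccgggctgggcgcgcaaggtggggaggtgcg
Itgb6 (chr3:65530334-65530583, GRCr8, minus strand): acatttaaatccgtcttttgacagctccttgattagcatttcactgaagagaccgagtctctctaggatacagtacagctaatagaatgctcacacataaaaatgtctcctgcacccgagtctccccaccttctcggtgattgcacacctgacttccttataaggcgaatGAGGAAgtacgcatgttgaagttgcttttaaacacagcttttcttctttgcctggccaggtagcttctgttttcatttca
Itgam held these letters at 2 places, which begin 151 and 39 bases upstream of the start, and Itgb6 held them once, 80 bases upstream. Itgax and Itga3 held 0, as did Itgb7. In windows of the same length, 23.3% of all 33469 promoters hold them. A match describes the letters only.

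Signals are given as log2(signal + 1) of the deposited linear values, and signals of different subunits are not set against each other because probe sets differ in brightness. A subunit was called where the limma test gave a Benjamini-Hochberg adjusted p below 0.05 over all 31042 probe sets and a change above 2-fold. Over all probe sets tumors exceeded controls by a median of 0.34 log2 units, and array medians were 129 to 154 in tumors and 96.9 to 104 in controls on the linear scale. Centring each array on its median lowered every tumor against control log2 fold change by 0.45. This shift was smaller than the rise of any subunit, so no direction could change under it. Itgb4 lost its call with such centring, as given below.

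The tissues differed in makeup. The mean log2 signal of 12 skeletal muscle genes was 5.41 to 5.69 in tumors and 13.98 to 14.06 in controls, and the mean of 8 mesothelial genes was 7.19 to 12.02 in tumors and 3.76 to 5.58 in controls, with Msln at 12.00 ± 1.59 in tumors and 4.98 ± 1.57 in controls (SD, n = 11 and 3) and Wt1 at 11.25 ± 1.55 in tumors and 4.14 ± 1.23 in controls. The control tissue thus carried muscle RNA and little of the mesothelial markers. The tumor MWCNT D replicate 2 stood apart, with a T cell list mean of 10.99 against 5.61 to 7.10 in the other tumors and a B and plasma cell list mean of 12.36 against 3.78 to 5.49. It and amosite replicate 1 also held pancreatic acinar enzymes, with list means of 14.18 and 15.03 against at most 5.76 elsewhere. In such bulk samples, fewer cells of a type and less RNA per cell cannot be told apart.

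Tumors against controls showed the broadest change. All 10 subunits were called, 8 higher and 2 lower, against a background of 24.5% of probe sets called higher and 10.4% called lower. The epithelial subunits Itga3, Itga6 and Itgb4 and the leukocyte subunits Itgb7, Itgb2, Itgax, Itgam and Itgal rose. The epithelial subunit Itgb6 and the muscle subunit Itga7 fell. The 10 subunits had a median log2 fold change of 3.05, beside 0.34 over all probe sets. Because they were chosen with earlier results of these data known, their count and median partly restate that choice. Of the 12 other integrin subunits measured, 6 were called higher and 0 lower, with a median of 0.94.

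**Figure D1:**
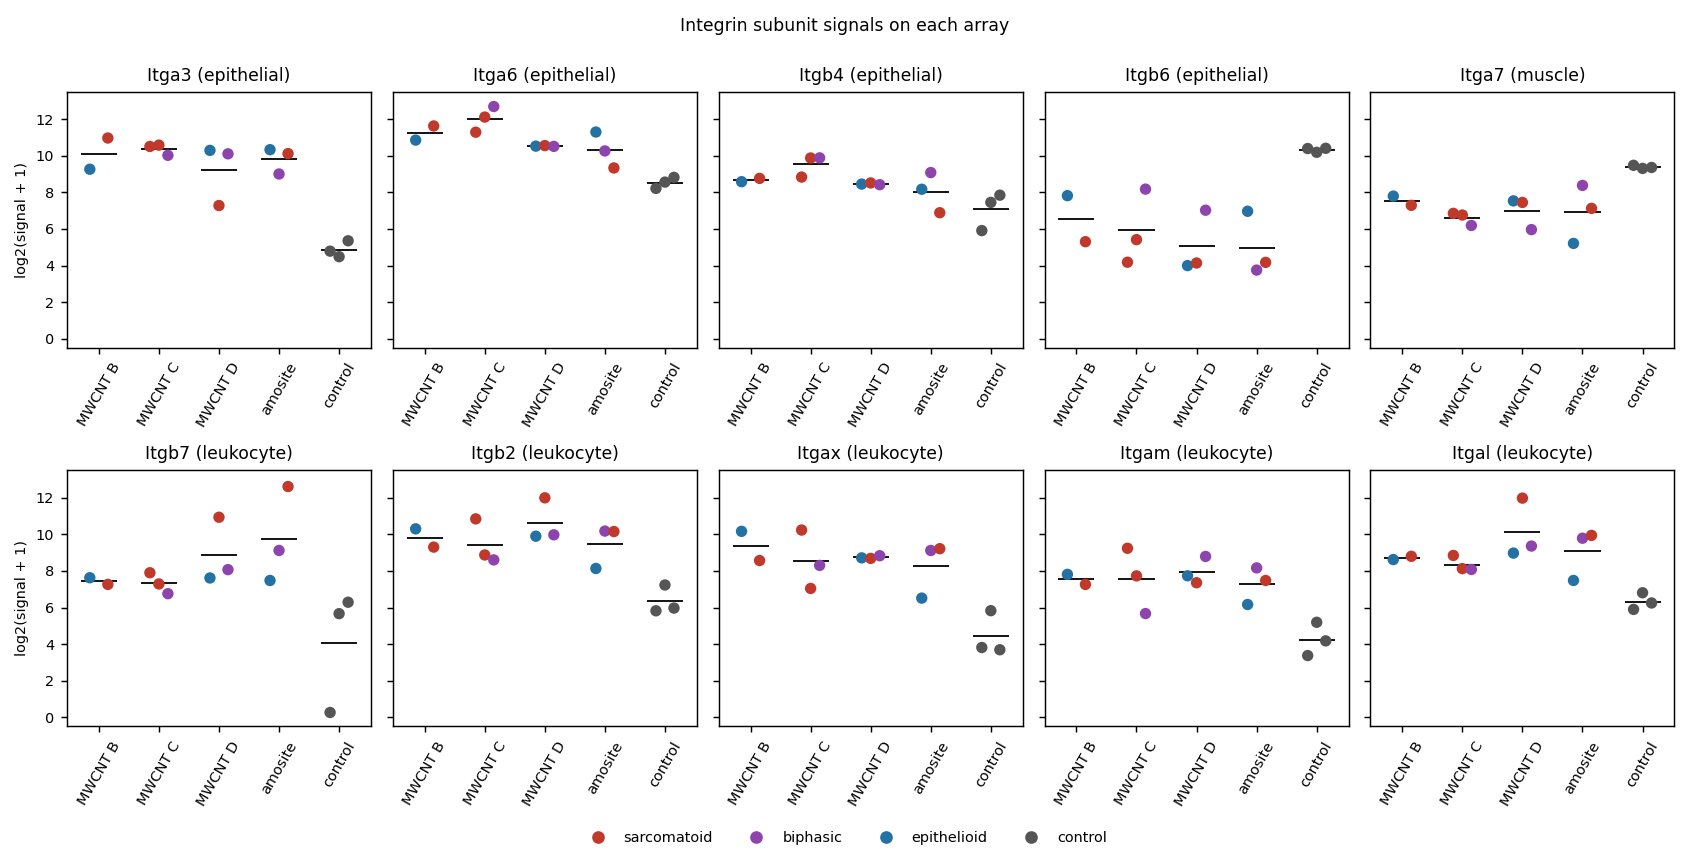
Signals of the 10 integrin subunits on each array. Each panel plots log2(signal + 1) by group, the 4 inducers left of control, points coloured by tumor type and a line at each group mean. Itga3 lies at 7.28 to 10.97 in tumors and 4.48 to 5.35 in controls, while Itgb6 lies at 3.75 to 8.18 in tumors and 10.19 to 10.41 in controls.

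Itga3, a laminin receptor subunit of basal epithelial cells, had log2 signals of 7.28 (lowest), 10.12 (median) and 10.97 (highest) in the 11 tumors, against 4.79, 4.48 and 5.35 in the controls. The groups lay far apart, and MWCNT D replicate 2 was the one tumor below 9. The log2 fold change was 4.99 (standard error 0.58, 95% confidence interval 3.75 to 6.22, limma adjusted p = 6.7e-06), and without that tumor it was 5.24 (adjusted p = 6.5e-08).

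Itga6, the partner of Itgb4 in hemidesmosomes, had log2 signals of 9.33, 10.86 and 12.69 (lowest, median and highest) in tumors, against 8.21, 8.56 and 8.82 in controls. The highest values were those of MWCNT C replicates 3 and 2, at 12.69 and 12.11, and the lowest that of amosite replicate 3. Itga6 rose by a log2 fold change of 2.47 (standard error 0.52, limma adjusted p = 0.00113).

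The next 2 probe sets of Itga6 gave log2 fold changes of 3.52 and 1.75 (limma adjusted p = 0.000124 and 0.00994). The remaining one, at 6.32 in tumors and 5.92 in controls, did not pass (0.40, adjusted p = 0.185).

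Itgb4, the beta subunit that anchors hemidesmosomes to keratin filaments, had log2 signals of 6.89, 8.58 and 9.89 (lowest, median and highest) in tumors, against 5.91, 7.45 and 7.85 in controls. Its groups overlapped, since amosite replicate 3 lay below 2 of the controls, and control replicate 1 lay well below the other controls. The log2 fold change of 1.61 (standard error 0.52, limma adjusted p = 0.0173) was the smallest of the 10 in size. The call was lost without control replicate 1 (1.03, adjusted p = 0.155), under quantile normalization (1.19, adjusted p = 0.0666) and with arrays centred on their median (1.16, adjusted p = 0.0739).

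Itgb6, the epithelial partner of Itgav, fell. Its log2 signals were 3.75, 5.30 and 8.18 (lowest, median and highest) in tumors, against 10.39, 10.19 and 10.41 in controls. No tumor reached the controls, and the tumors themselves spread over 4.43 log2 units. This gave a log2 fold change of -4.79 (standard error 0.92, limma adjusted p = 0.000529). Of the 11 tumors 5 lay below a log2 signal of 5, and with such values set to 5 the change was -4.36 (adjusted p = 0.000286).

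The 4 tumors with the most Itgb6 signal were MWCNT C replicate 3 (8.18), MWCNT B replicate 1 (7.82), MWCNT D replicate 3 (7.02) and amosite replicate 1 (6.97), none of them sarcomatoid. They also had the 4 highest means of the epithelial list, at 10.80, 8.78, 9.12 and 8.68. The lowest Itgb6 signals, in amosite replicate 2 (3.75) and MWCNT D replicate 1 (3.996), were not those of sarcomatoid tumors either. The epithelial list means of these tumors were 7.51 and 7.89, above the highest sarcomatoid mean of 6.61. In controls that list was at 3.73 to 4.04, with Cdh1 (E-cadherin) at 2.12 to 3.29 and Krt14 (a basal keratin) at 0.01 to 1.11, so that Itgb6 signal was highest where these epithelial markers were lowest. Krt14 was at 12.76 in amosite replicate 2 and 12.03 in MWCNT D replicate 1. Both lay within the range of the 4 tumors with the most Itgb6, 10.45 to 13.39. The part of the list and of Krt14 in the result was not tested. Only 1 probe set stands for Itgb6, and its signal in control tissue rests on it.

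Itga7, the laminin receptor subunit of striated muscle, had log2 signals of 5.21, 7.12 and 8.38 (lowest, median and highest) in tumors, against 9.48, 9.31 and 9.36 in controls. All tumors lay below all controls, with amosite replicate 1 lowest and amosite replicate 2 highest. The log2 fold change was -2.42 (standard error 0.50, limma adjusted p = 0.000972), and a second probe set gave -1.66 (adjusted p = 0.00768). Another probe set had all 14 values below a log2 signal of 5 and moved the other way, at 3.59 ± 1.26 in tumors and 1.75 ± 1.05 in controls (SD, n = 11 and 3; log2 fold change 1.84, adjusted p = 0.0475).

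The 12 skeletal muscle genes all fell, by a median log2 fold change of -8.39, and their part in the change of Itga7 was not tested. Among the tumors, where the muscle list spanned only 5.41 to 5.69, Itga7 still varied over 3.17 log2 units. The adipocyte list mean was 4.69 to 10.58 across these tumors. It was at 5.89 in amosite replicate 1, the tumor with the lowest Itga7, and at 10.58 in amosite replicate 2, that with the highest. The lowest list mean was that of another tumor. The part of this list in the spread of Itga7 was not tested.

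Of the leukocyte subunits, Itgb2, the shared beta chain of the phagocyte and lymphocyte receptors, had log2 signals of 8.13, 9.97 and 11.99 (lowest, median and highest) in tumors, against 5.82, 7.23 and 5.97 in controls. The groups did not overlap, and MWCNT D replicate 2 was the highest tumor. Itgb2 rose by a log2 fold change of 3.50 (standard error 0.63, limma adjusted p = 0.000322).

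Itgal, the lymphocyte alpha chain that binds Icam1, had log2 signals of 7.48, 8.85 and 11.98 (lowest, median and highest) in tumors, against 5.90, 6.81 and 6.25 in controls. The highest value was again that of MWCNT D replicate 2, more than 2 log2 units above the next tumor, amosite replicate 3, at 9.94. The log2 fold change was 2.77 (standard error 0.68, limma adjusted p = 0.00313) and 2.48 without MWCNT D replicate 2 (adjusted p = 0.00035).

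Itgam, the complement receptor chain of macrophages and granulocytes, had log2 signals of 5.67, 7.73 and 9.24 (lowest, median and highest) in tumors, against 3.37, 5.19 and 4.18 in controls. MWCNT C replicate 1 was highest, and the groups did not overlap. Itgam rose by a log2 fold change of 3.33 (standard error 0.61, limma adjusted p = 0.000367).

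Itgax, the chain best known from dendritic cells and tissue macrophages, had log2 signals of 6.51, 8.71 and 10.23 (lowest, median and highest) in tumors, against 3.81, 5.83 and 3.69 in controls. MWCNT C replicate 1 and MWCNT B replicate 1 were the highest tumors, and the groups did not overlap. Itgax rose by a log2 fold change of 4.23 (standard error 0.69, limma adjusted p = 0.000139). Itgad, the next gene on chromosome 1 and another alpha partner of Itgb2, had a mean log2 signal of 5.64 in tumors and 5.40 in controls and did not pass (limma adjusted p = 0.296).

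Itgb7, the mucosal homing beta chain of lymphocytes, had log2 signals of 6.76, 7.63 and 12.61 (lowest, median and highest) in tumors, against 0.26, 5.66 and 6.29 in controls. Amosite replicate 3 (12.61) and MWCNT D replicate 2 (10.93) stood above the other tumors, of which the next was amosite replicate 2 at 9.12. MWCNT D replicate 2 also had the highest T cell and B and plasma cell lists. Amosite replicate 3 had a T cell list mean of 6.84 and Cd3e at 6.58, within the range of the remaining tumors. Its Cd3g (7.01), Cd8a (5.93) and the B cell gene Ms4a1 (4.55) also lay within that range. Its Cd4 was the highest of all tumors by a small margin (8.35, the next being 8.34). After MWCNT D replicate 2 it had the highest B and plasma cell list mean (5.49) and the highest Jchain (10.09, the next being 8.68). The part of these markers in the Itgb7 signal was not tested.

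The log2 fold change of Itgb7 was 4.35 (standard error 1.28, limma adjusted p = 0.0101) and depended on control replicate 1. Without that array it was 2.45 and the call was lost (adjusted p = 0.118). With every value below a log2 signal of 5 set to 5 it was 2.77 (adjusted p = 0.0448), and the same floor gave 3.39 for Itgax, 2.52 for Itgam and 4.74 for Itga3, all of them still called.

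Tumor and control ranges did not overlap for 9 of the 10 subunits, Itgb4 being the exception. Over all probe sets 28.1% were without overlap and higher in tumors, and 14.1% without overlap and lower in tumors. Over the 24 other settings of the analysis tried, the exceptions among the calls were those given for Itgb4 and Itgb7, and Itga3, Itga6, Itgb6, Itga7, Itgb2, Itgax, Itgam and Itgal were called in each. Of these settings, dropping the fold limit could not lose a call, and a second probe set exists only for Itga6 and Itga7.

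Macrophage and general leukocyte markers were higher in tumors along with the leukocyte subunits. Most lymphocyte markers did not pass, although the median log2 fold change of the T cell list was 1.77. The counts below stand beside 24.5% of all probe sets called higher. Of 12 macrophage genes 11 rose and 0 fell, and the list mean was 9.37 to 11.96 in tumors and 7.82 to 8.97 in controls. Of 6 genes shared by all leukocytes 5 rose, and their mean was 8.11 to 11.69 in tumors and 6.37 to 7.69 in controls. Of 8 T cell genes 3 rose and of 5 neutrophil genes 3 rose, whereas none of 4 B and plasma cell genes passed. The T cell list mean was 5.61 to 10.99 in tumors and 5.29 to 5.49 in controls, the B and plasma cell mean 3.78 to 12.36 in tumors and 4.45 to 4.68 in controls, and the neutrophil mean 5.30 to 8.52 in tumors and 3.22 to 5.03 in controls. No value in the table was at 0, and Ptprc (CD45, on all leukocytes) was at 8.73 to 12.82 in tumors and 7.31 to 8.62 in controls. The part of these lists in the rise of the subunits was not tested.

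**Figure D2:**
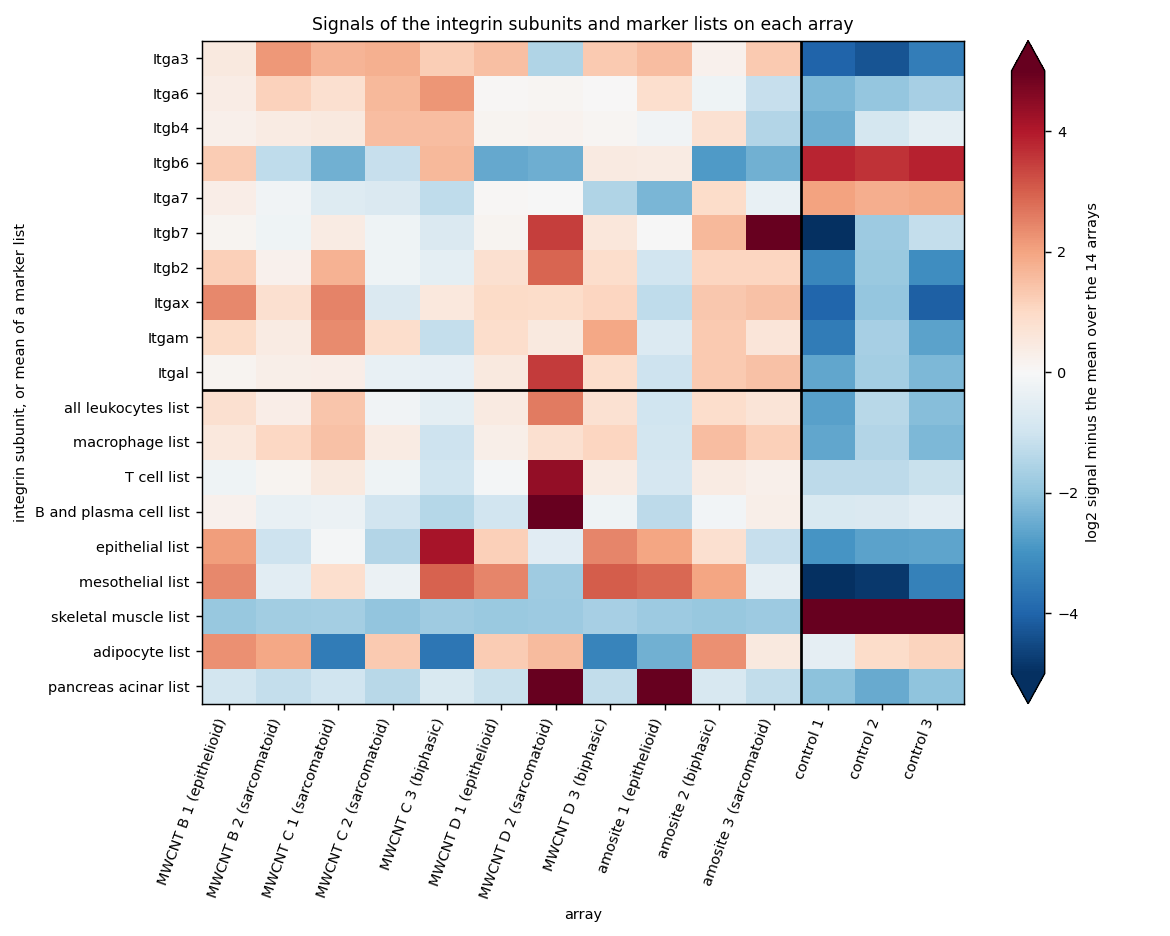
Signals of the 10 subunits (upper rows) and of marker list means (lower rows) on each array, tumors left of the controls. Colour is the log2 signal minus the row's mean over the 14 arrays, and values past 5 in either direction share the end colour. MWCNT D replicate 2 is the array with the highest T cell list (10.99), B and plasma cell list (12.36), Itgal (11.98) and Itgb2 (11.99), whereas Itgb7 is highest in amosite replicate 3 (12.61).

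By inducer, each group was compared with the same 3 controls, so the comparisons are not independent of each other and are given side by side. The count of subunits called was 7 of 10 for MWCNT B (against 30.1% of all probe sets), 8 for MWCNT C (32.1%), 9 for MWCNT D (32.6%) and 9 for amosite (31.8%). Itga3, Itga6, Itgb6, Itgb2, Itgax and Itgam were called against controls for each of the 4 inducers. Itgb4 passed only for MWCNT C, with a log2 fold change of 2.46 (limma adjusted p = 0.00531), against 1.60 for MWCNT B (adjusted p = 0.0698), 1.39 for MWCNT D (0.07) and 0.98 for amosite (0.191). Itgb7 passed for MWCNT D (4.80, adjusted p = 0.0315) and amosite (5.66, 0.0149) but not for MWCNT B (3.37, 0.161) or MWCNT C (3.24, 0.125).

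Itgal passed narrowly for MWCNT B (log2 fold change 2.39, limma adjusted p = 0.0499), for MWCNT D (3.79, adjusted p = 0.00265) and for amosite (2.75, 0.0149). For MWCNT C it narrowly missed (2.03, adjusted p = 0.0548). Itga7 missed for MWCNT B (-1.84, adjusted p = 0.0704), and it was lower for MWCNT C (-2.78, 0.00586), MWCNT D (-2.40, 0.0128) and amosite (-2.48, 0.011). The MWCNT B count rested on 2 tumors, and it dropped to 3 without MWCNT B replicate 1, to 4 without MWCNT B replicate 2 and to 4 without control replicate 1. The calls of Itgb7 for amosite and MWCNT D were lost without amosite replicate 3 (4.23, adjusted p = 0.0582) and without MWCNT D replicate 2 (3.77, adjusted p = 0.105).

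By tumor type, 9 of 10 subunits were called in sarcomatoid tumors against controls (34.2% of all probe sets), 9 in biphasic tumors (34.2%) and 7 in epithelioid tumors (34.2%). Itgb4 passed in biphasic tumors (log2 fold change 2.06, limma adjusted p = 0.0233) and missed in sarcomatoid (1.51, 0.0516) and epithelioid tumors (1.33, 0.119). Without amosite replicate 3 it passed in sarcomatoid tumors as well (1.93, adjusted p = 0.00723). Itgb7 passed in sarcomatoid tumors (5.13, adjusted p = 0.0111) and missed in biphasic (3.91, 0.0663) and epithelioid tumors (3.50, 0.0961). Itgal missed in epithelioid tumors (2.04, adjusted p = 0.0603) and passed without MWCNT D replicate 2, which is not an epithelioid tumor but adds to the pooled spread (adjusted p = 0.00915).

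**Figure D3:**
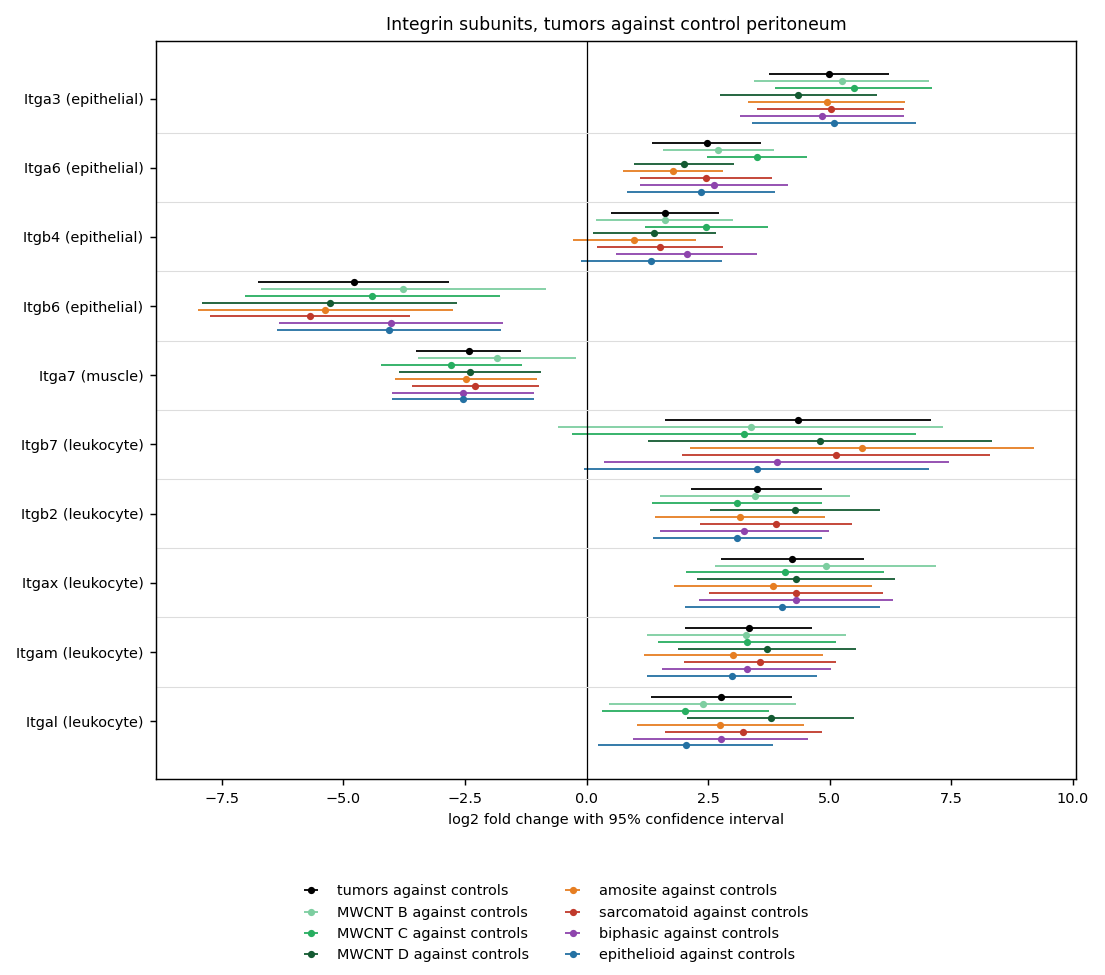
Log2 fold changes of the 10 subunits against control peritoneum, for all tumors, each inducer and each tumor type. Points are the fitted log2 fold changes and bars their 95% confidence intervals. Itga3 lies between 4.35 and 5.49 in all comparisons drawn, Itgb6 and Itga7 lie left of 0 throughout, and the widest intervals are those of Itgb7.

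The 5 comparisons among tumors called 0 of the 10 subunits. These asked whether tumor types differ from each other, whether MWCNT tumors differ from amosite tumors, and whether MWCNT B and C tumors differ from MWCNT D tumors. The shares of all probe sets called were 0.76% for sarcomatoid against epithelioid, 0.248% for sarcomatoid against biphasic, 0% for biphasic against epithelioid, 0% for MWCNT against amosite and 0.00322% for MWCNT B and C against MWCNT D. At an unadjusted limma p below 0.05 the counts of subunits were 0, 0, 0, 1 and 2 in the same order. A miss here does not show that the groups are alike, since the intervals are wide.

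Itgb6 differed most between sarcomatoid and biphasic tumors among the subunits. Its log2 signals were 4.14 to 5.42 in the 5 sarcomatoid tumors. They were 3.75 to 8.18 in the biphasic tumors and 3.996 to 7.82 in the epithelioid tumors. The ranges overlapped. The log2 difference was -1.62 for sarcomatoid against epithelioid (95% confidence interval -3.68 to 0.44, limma adjusted p = 0.501) and -1.67 for sarcomatoid against biphasic (-3.73 to 0.38, adjusted p = 0.645). Of the 5 sarcomatoid tumors 3 lay below a log2 signal of 5, and with such values of Itgb6 set to 5 these differences were -1.45 and -1.59. For sarcomatoid against epithelioid tumors Itgb7 had the difference of greatest size, at 1.63 (-1.54 to 4.79, adjusted p = 0.687).

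Itga6 was 0.97 log2 units higher in MWCNT than in amosite tumors (95% confidence interval 0.11 to 1.83, limma adjusted p = 0.969). It was 1.11 higher in MWCNT B and C tumors, at 10.86 to 12.69, than in MWCNT D tumors, at 10.51 to 10.55, and these ranges did not overlap (0.18 to 2.03, adjusted p = 0.625). Itgal was lower in MWCNT B and C tumors, at 8.08 to 8.85, than in MWCNT D tumors, at 8.97 to 11.98, also without overlap (log2 difference -1.57, -3.12 to -0.02, adjusted p = 0.643). Itgb4 likewise did not overlap (0.64, -0.50 to 1.78, adjusted p = 0.767). None of these passed the adjustment. The share of all probe sets without overlap between MWCNT B and C tumors and MWCNT D tumors was not determined. The lack of overlap therefore describes these arrays only. MWCNT B and C tumors held the tumor types in other shares than MWCNT D tumors, so inducer and type cannot be fully told apart here.

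For Itga3 the log2 difference between sarcomatoid and epithelioid tumors was -0.07 with an interval of -1.58 to 1.43, and for Itgam that between sarcomatoid and biphasic tumors was 0.27 with -1.29 to 1.83. Such intervals hold changes past 2-fold in either direction. The interval for Itgb7 between MWCNT and amosite tumors ran from -4.80 to 1.09.

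**Figure D4:**
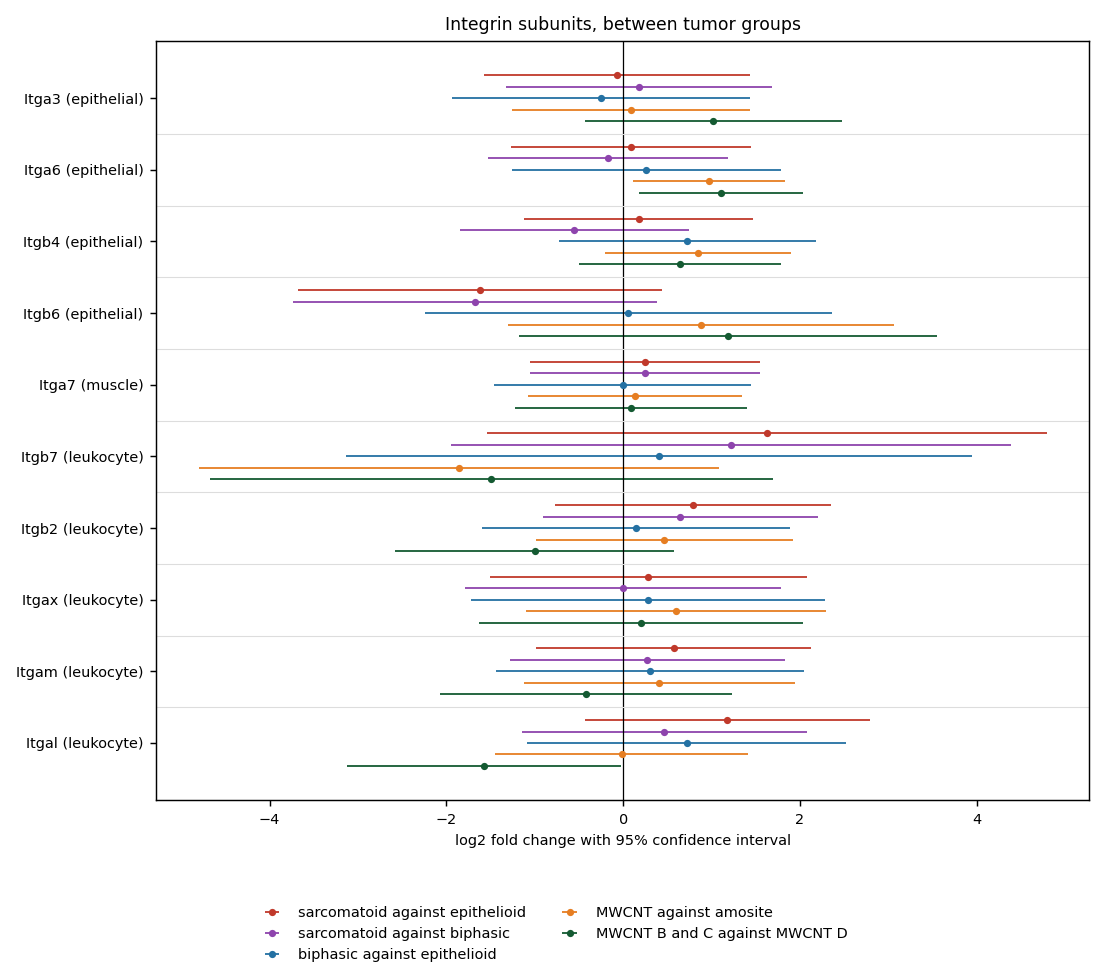
Log2 differences of the 10 subunits between groups of tumors, with 95% confidence intervals. Most intervals cross 0, and the exceptions are Itga6 for MWCNT against amosite and for MWCNT B and C against MWCNT D, and Itgal for MWCNT B and C against MWCNT D. None had an adjusted p below 0.05.

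Whether subunits that pair in one receptor vary together was examined over the 11 tumors for 8 pairs, with 100000 permutations and Benjamini-Hochberg adjustment over the 8. Itga6 and Itgb4 gave r = 0.83 (permutation p = 0.0025, adjusted 0.01) and rho = 0.59 (p = 0.06, adjusted 0.12). Itgal and Itgb2 gave r = 0.87 (permutation p = 0.00052, adjusted 0.0042) and rho = 0.73 (p = 0.014, adjusted 0.058). Both rest in part on end points. Without the 2 tumors farthest from the median of the first gene, r was 0.53 for Itga6 and Itgb4 and 0.62 for Itgal and Itgb2.

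Itgax and Itgb2 gave r = 0.69 (permutation p = 0.02, adjusted 0.054) and rho = 0.79 (p = 0.0059, adjusted 0.047), and Itgam and Itgb2 gave r = 0.58 (permutation p = 0.059, adjusted 0.1) and rho = 0.60 (p = 0.055, adjusted 0.12). Without their 2 farthest tumors r was 0.39 and 0.12. MWCNT D replicate 2 had the highest Itgb2 signal with Itgax and Itgam near their medians. Leaving out that tumor alone, a step chosen after seeing the data, gave r = 0.91 for Itgax (adjusted p = 0.0012), 0.84 for Itgam (0.0086) and 0.76 for Itgal (0.023).

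The remaining 4 pairs did not pass. Itga3 and Itgb1 gave r = 0.55 (permutation p = 0.064, adjusted 0.1; rho = 0.40, p = 0.22, adjusted 0.3), and without the 2 farthest tumors r was -0.09. Itgav and Itgb6 gave r = 0.41 (p = 0.21, adjusted 0.28; rho = 0.45, p = 0.17, adjusted 0.28) and 0.34 without them. Itga7 and Itgb1 gave r = 0.24 (p = 0.47, adjusted 0.54; rho = 0.22, p = 0.52, adjusted 0.6) and 0.24 without them. Itgae and Itgb7 gave r = 0.15 (p = 0.67, adjusted 0.67; rho = 0.08, p = 0.82, adjusted 0.82) and 0.24 without them. Itga4, the other partner of Itgb7, has no probe set of its own and was not analysed here.

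**Figure D5:**
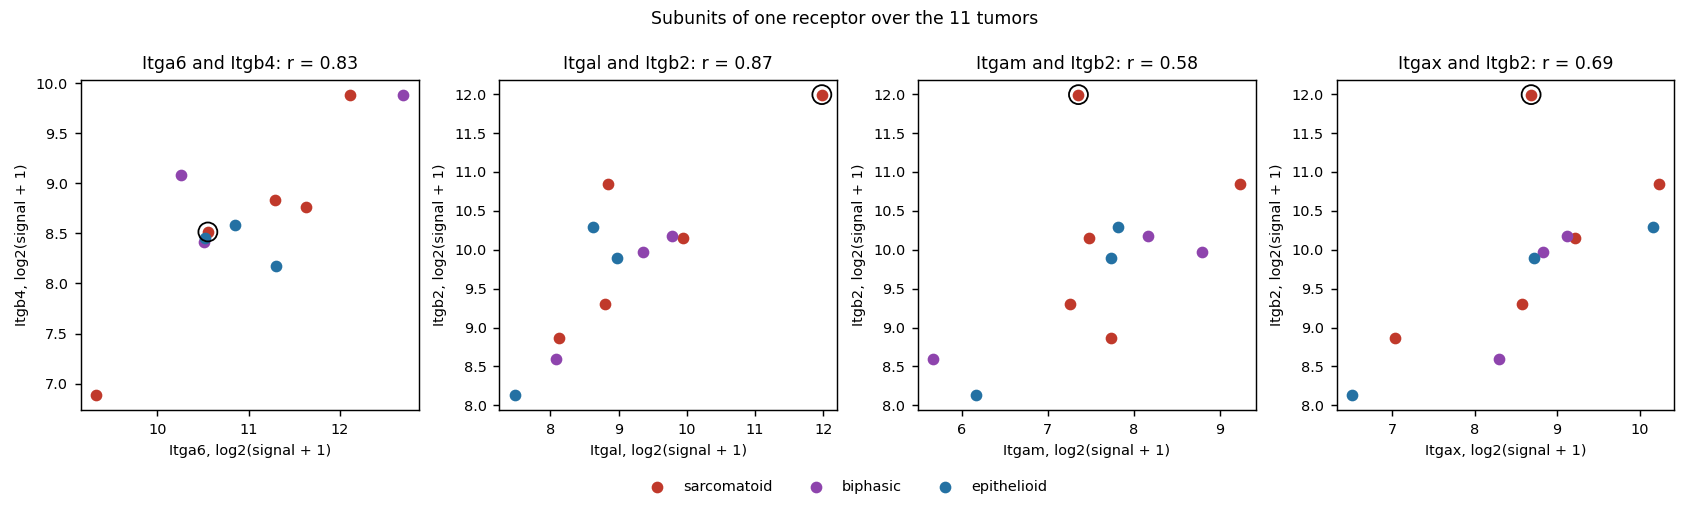
Signals of paired subunits in the 11 tumors, both axes in log2(signal + 1), points coloured by tumor type and MWCNT D replicate 2 ringed. Pearson's r is 0.83 for Itga6 and Itgb4, 0.87 for Itgal and Itgb2, 0.58 for Itgam and Itgb2 and 0.69 for Itgax and Itgb2, and the ringed tumor lies off the line of the others in the Itgam and Itgax panels.

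The genes whose pattern over the 11 tumors was most like that of 3 subunits were sought among 7597 genes with a mean log2 signal of at least 8. For Itgb2 these were Ptprc (r = 0.98), Lcp1 (0.97), Ncf4 (0.97), Hcls1 (0.97) and Cd53 (0.97). Itgal, the receptor partner of Itgb2 (r = 0.87), was among the genes searched and ranked below these. For Itgb4 they were Gnl2 (r = 0.84), Itga6 (0.83), Psma1 (0.82), Pafah1b2 (0.81) and Prr12 (0.80), so that its own receptor partner ranked second. For Itga7 they were F8 (r = 0.93), Fabp4 (0.91), Tprg1l (0.89), Pink1 (0.88) and Sparcl1 (0.88). These values describe the arrays and were not tested.

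Of 16 other integrin subunits 12 were measured, and 6 rose and 0 fell in tumors against controls, with a median log2 fold change of 0.94. Over all probe sets 24.5% were called higher and 10.4% lower, with a median of 0.34. Itga8, a partner of Itgb1 in mesenchyme, rose by a log2 fold change of 3.04 (limma adjusted p = 0.000426). Itgb3 and Itgb5, partners of Itgav in vitronectin receptors, rose by 2.32 and 2.15 (0.00352 and 0.00272), and Itgav itself by 1.11 (0.0137). Itga1, a collagen receptor subunit, rose by 2.03 (0.00407) and Itga5, the fibronectin receptor subunit, by 1.16 (0.00369). The common beta subunit Itgb1 had a log2 signal of 12.43 in tumors and 11.66 in controls, a difference of 0.77 that stayed under the fold limit (0.012). Itgae had 8.28 in tumors and 9.18 in controls (-0.90, 0.0276), and Itga2b, Itga9, Itga11 and Itgad did not pass, with log2 fold changes between -0.82 (Itga11) and 0.60 (Itga9). Thus Itgav, the partner of Itgb6, was higher in tumors while Itgb6 was lower.

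The ligands and partners of the epithelial subunits are read against the 24.5% of all probe sets called higher, the 10.4% called lower and the median of 0.34. Of 6 hemidesmosome partners 3 rose and 0 fell over all tumors, and the list's median was 0.86. Among those that rose were Krt14 (log2 fold change 9.52, limma adjusted p = 0.000154) and the tetraspanin Cd151 (1.42, adjusted p = 0.00429). By group, 2 of the 6 were called lower in MWCNT D tumors, 1 in amosite tumors and 1 in biphasic tumors. In the other inducer and type groups 0 were called lower. Krt14 was at 0.01 to 1.11 in controls, so its fold rests on values near 0. Of 10 laminin chains 2 rose and 1 fell, with a median of 0.35, which is close to that background. Lama5 rose by 2.52 (0.0192), Lamb1 rose by 1.41 (0.000183), and Lama2, the chain of muscle basement membrane, fell by 1.76 (0.024). Of 6 ligands of the Itgav and Itgb6 receptor 3 rose and 1 fell, with a median of 1.97, and fibronectin (Fn1) and the latent TGF-beta binding protein Ltbp1 rose by 2.04 (0.00842) and 1.91 (0.000759).

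The counts of this paragraph stand beside 24.5% of all probe sets called higher and 10.4% called lower. Of 13 leukocyte integrin ligands 7 rose and 0 fell, with a median of 1.78. Cdh1, the ligand of the Itgae and Itgb7 receptor, rose by a log2 fold change of 6.08 (limma adjusted p = 0.00703), a size that rests on control signals of 2.12 to 3.29, all below a log2 of 5. Also higher were the complement protein C3 by 5.50 (0.000391), Vcam1 by 5.28 (3.8e-07) and Icam1 by 3.75 (5.6e-05). Of 22 activators and linkers of integrins 10 rose and 2 fell, with a median of 0.92, and the falls were close to the share of all probe sets. The leukocyte kindlin Fermt3 rose by 2.78 (0.000497), the small GTPase Rap1b rose by 1.95 (3.5e-07), Tgfb1i1 rose by 1.79 (0.00126) and Tln2, the talin enriched in striated muscle, fell by 1.86 (0.00638).

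Of 8 striated muscle partners of integrins 6 fell and 0 rose, with a median log2 fold change of -3.26. These counts and those of the marker lists below stand beside 24.5% of all probe sets called higher and 10.4% called lower. Sgca, a sarcoglycan, fell by 6.65 (limma adjusted p = 6.3e-12), Itgb1bp2 by 6.12 (4.1e-12), the Z-disc protein Ldb3 by 5.07 (7.4e-06) and Sgcb by 3.86 (0.000153). Sgca, Itgb1bp2, Ldb3 and Sgcb were named for the size of their change. The other 4 members of the list were Flnc (-2.66), Lama2 (-1.76), Dmd (-0.87) and Dag1 (-0.11), the last 2 not called, so that Itga7, at -2.42, lay within the list's range. Other marker lists that could move with the epithelial subunits were higher too, with 4 of 7 epithelial and 6 of 8 mesothelial genes up and 0 down in each. Of 5 endothelial genes 0 passed, of 6 fibroblast genes 2 rose, of 6 smooth muscle genes 1 rose and 2 fell, of 6 adipocyte genes 0 passed, and of 8 pancreatic acinar genes 1 rose.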

How the data were processed

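Total RNA of 11 tumors and 3 control tissues had been hybridized to Affymetrix Rat Genome 230 2.0 arrays, 1 array per rat. The authors normalized the array intensity values with PLIER in the Transcriptome Analysis Console, and the deposited table holds linear signals of 31099 probe sets without detection calls. Removal of 57 control probe sets left 31042. Analyses used log2(signal + 1). Genes were named by the array annotation and gene ID, and where several probe sets stood for a gene the brightest on average was used. Fits with limma 3.58.1 (R 4.3.3) compared tumors with controls, the inducers and the tumor types (13 comparisons), with Benjamini-Hochberg adjustment over all probe sets. Correlations used permutation tests (Python 3.11.15). The method was tested on simulated data. Members and lists were chosen with earlier results of these data known. Named genes were every integrin subunit measured, up to 4 genes per partner list with the largest change among those called with a mean log2 signal of at least 8 in the higher group, and the 5 most alike genes for Itgb4, Itga7 and Itgb2. Alternatives were quantile normalization, median centring, a floor at 5, a filter at 6, a pseudocount of 16, no moderation, the replicate number as a block, the adjusted p alone, the next brightest probe set, tumor type or inducer as a covariate between tumors, subtraction of type means for correlations, and each array left out. The number of arrays limits the precision. Samples were separate rats, and replicate numbers do not pair them.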

Additional observations from a re-analysis of the deposited data

Results flagged for a closer look

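Among 20 groups of 5 or 8 tumors, 5 held a tumor far from the others, where chance gives about 1 in 20 for independent groups. These groups are not independent, since they are 10 genes in 2 sets of tumors that share 4 tumors, and 4 of the 5 cases are the same tumor, MWCNT D replicate 2. Itga3 was lowest in MWCNT D replicate 2, at a log2 signal of 7.28, both among the 8 MWCNT tumors (the next was 9.26) and among the 5 sarcomatoid tumors (the next was 10.12). The same tumor was highest among the MWCNT tumors in Itgb7, at 10.93 (next 8.07), and in Itgal, at 11.98 (next 9.36). Itgam was highest among the sarcomatoid tumors in MWCNT C replicate 1, at 9.24 (next 7.73).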

How the results depend on the processing

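For tumors against controls, the 24 alternatives gave 240 values for the 10 subunits, of which 236 stayed on their side of the threshold and 4 lost the call, 3 of Itgb4 and 1 of Itgb7. Some of these values could not change. The adjusted p alone only drops the fold limit, so it cannot lose a call. Only 2 subunits have several probe sets, and for the others the next brightest probe set repeats the main value. Over all 13 comparisons 3080 of 3170 values stayed, 61 lost and 29 gained the call, and 0 called values changed direction. Leaving out each array gave 3 to 8 subunits called in MWCNT B tumors. Over the pairs, r of Itgax and Itgb2 passed with arrays centred on their median (0.70) or after subtraction of tumor type means (0.71). Without MWCNT D replicate 2 it was 0.91, and r of Itgam and Itgb2 was 0.84. Without both tumors with pancreatic enzymes, an alternative chosen after seeing the data, r was 0.86 for Itgax and 0.79 for Itgam, which passed, and 0.62 for Itgal, which did not. The replicate numbers do not pair the samples (median correlation of deviations 0.02 over 26 same-numbered pairs), and the replicate block left 10 subunits called for tumors against controls, 6 for MWCNT B, 9 for MWCNT C and 6 for epithelioid tumors. Control signals near a log2 of 5 or below limit the size of the rises of Itga3, Itgax, Itgam and Itgb7, and tumor signals in that range limit the size of the fall of Itgb6.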
